A study of Neotoma lepida with 16 samples.

Results

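The genes described here are 9 that act around haem in the liver: Alas1, Alad, Urod, Cpox, Ppox and Fech of haem synthesis, Hmox1 of haem breakdown, and Por and Cyb5, which pass electrons to cytochrome P450 enzymes. They were chosen as every probe on the array whose gene name, after removal of the suffix for predicted genes, was one of these symbols. That gave 10 probe designs for 9 of the 35561 genes or transcripts on the array, with 2 designs for Urod and 1 for every other gene. Probes of 8 of the 9 genes, 9 designs in all, passed the filter on dim signal, and Cpox did not.

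Wild-caught desert woodrats (Neotoma lepida) from the Mojave and the Great Basin lived in captivity for 3 months on rabbit chow and were then given rising amounts of creosote bush or of juniper in the chow for 5 days. The 4 groups were Mojave animals on creosote, Mojave animals on juniper, Great Basin animals on creosote and Great Basin animals on juniper, with 4 animals in each. All 4 Mojave animals on creosote were male, and every other group held 2 males and 2 females; ages were not given in the sources used here. A plant was added to the chow of all groups and there was no chow control, so lower on creosote and higher on juniper are the same statement here.

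Haem is built in a chain of steps shared between mitochondrion and cytosol. ALAS1, the first enzyme, makes aminolevulinate and sets the rate of the chain in liver, and ferrochelatase (Fech) puts the iron in at the end. In liver much of the haem goes into P450 enzymes, which oxidise drugs, plant toxins and steroids. P450s of the endoplasmic reticulum take their electrons from NADPH through P450 reductase (Por), and for some of them cytochrome b5 (Cyb5, now Cyb5a) supplies an electron or raises the rate. Haem is opened by haem oxygenases, of which Hmox1 is the inducible form.

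Each animal's liver RNA was labelled red (Cy5) and hybridised to 1 two-colour rat array together with a green (Cy3) pool of all 16 RNAs. Values are therefore log2 ratios of an animal over the pool, so 0 means the level of the pool, 1 unit is a doubling, and levels of different genes are not compared. Between 45.56% and 75.85% of probes were well above background in the animal's channel. The arrays of slide 1, which held 1 animal of every group, averaged 48.48% and stood apart from the other slides at 65.5% to 71.28%. On every slide the creosote animals lay at positions 1 and 2 and the juniper animals at positions 3 and 4, so diet and position cannot be told apart. Of 10 hepatocyte markers 8 were above background on all arrays, and Apoa1 and Tf were so on none. The mean log2 ratio of these 8 was 0.41 to 0.84 in Mojave creosote against −0.29 to −0.15 in Mojave juniper, and 0.51 to 0.81 in Great Basin creosote against −0.37 to −0.20 in Great Basin juniper. Markers of erythroid cells, macrophages, lymphocytes, and pancreas and intestine had overlapping means between diets. Of the 8 hepatocyte markers 5 passed as higher on creosote in Mojave, 4 in Great Basin and 7 averaged over populations, and 0 as lower. Of single markers of the other types, 1 of 8 for macrophages passed as lower on creosote in Great Basin (Cd14, −0.54, limma adjusted p = 0.00685) and 1 of 7 for pancreas and intestine as higher in Mojave (Ela1, 0.59, limma adjusted p = 0.0287). Over all probes 1.89% passed as lower and 2.02% as higher in Great Basin, and 3.80% as higher in Mojave. Averaged over populations 12.2% of all probes passed in either direction. Of the other types, Cd14 and Fabp2 (−0.17) then passed as lower and Ela1 as higher. These 3 are named after their values were seen. The part of these shifts in the differences below was not tested, and fewer cells of a type cannot be told apart from less RNA per cell.

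Alas1, Fech, Cyb5 and Por, 4 of the 8 measured genes, were lower on creosote than on juniper in both populations. In Mojave animals 4 of 9 probes passed the test as lower (Alas1, Fech, Cyb5 and Por) and 1 as higher (Alad), when 10% of all probes passed in either direction, 6.24% as lower and 3.80% as higher. In Great Basin animals 5 of 9 passed as lower (Alas1, the brighter Urod probe, Fech, Cyb5 and Por) and 0 as higher, when 3.91% of all probes passed in either direction, 1.89% as lower and 2.02% as higher. Averaged over the populations, Alas1, Fech, Hmox1, Cyb5 and Por passed as lower, 5 of 9 against 6.58% of all probes as lower and 12.2% in either direction. The median log2 difference of the 9 probes was −0.39 in Mojave and −0.46 in Great Basin, beside −0.007 and −0.004 over all probes. The creosote and juniper animals did not overlap for 4 of the 9 probes in Mojave, where this held for 17.2% of all probes, and for 6 of 9 in Great Basin, where it held for 10.6%. The test was limma's moderated test on 16 animals with sex as a term, with Benjamini-Hochberg adjustment over the kept probes with a value for that contrast (30152 to 30181 of 30184) and a threshold of 0.05. How many calls run each way over all probes depends on the normalisation: 37.9% of the Mojave calls were higher on creosote, against 13.6% with plain median centring in place of loess, and 51.7% of the Great Basin calls, against 63.8%. With the Cy5 signal alone these shares were 50.3% in Mojave and 40.7% in Great Basin.

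**Figure D1:**
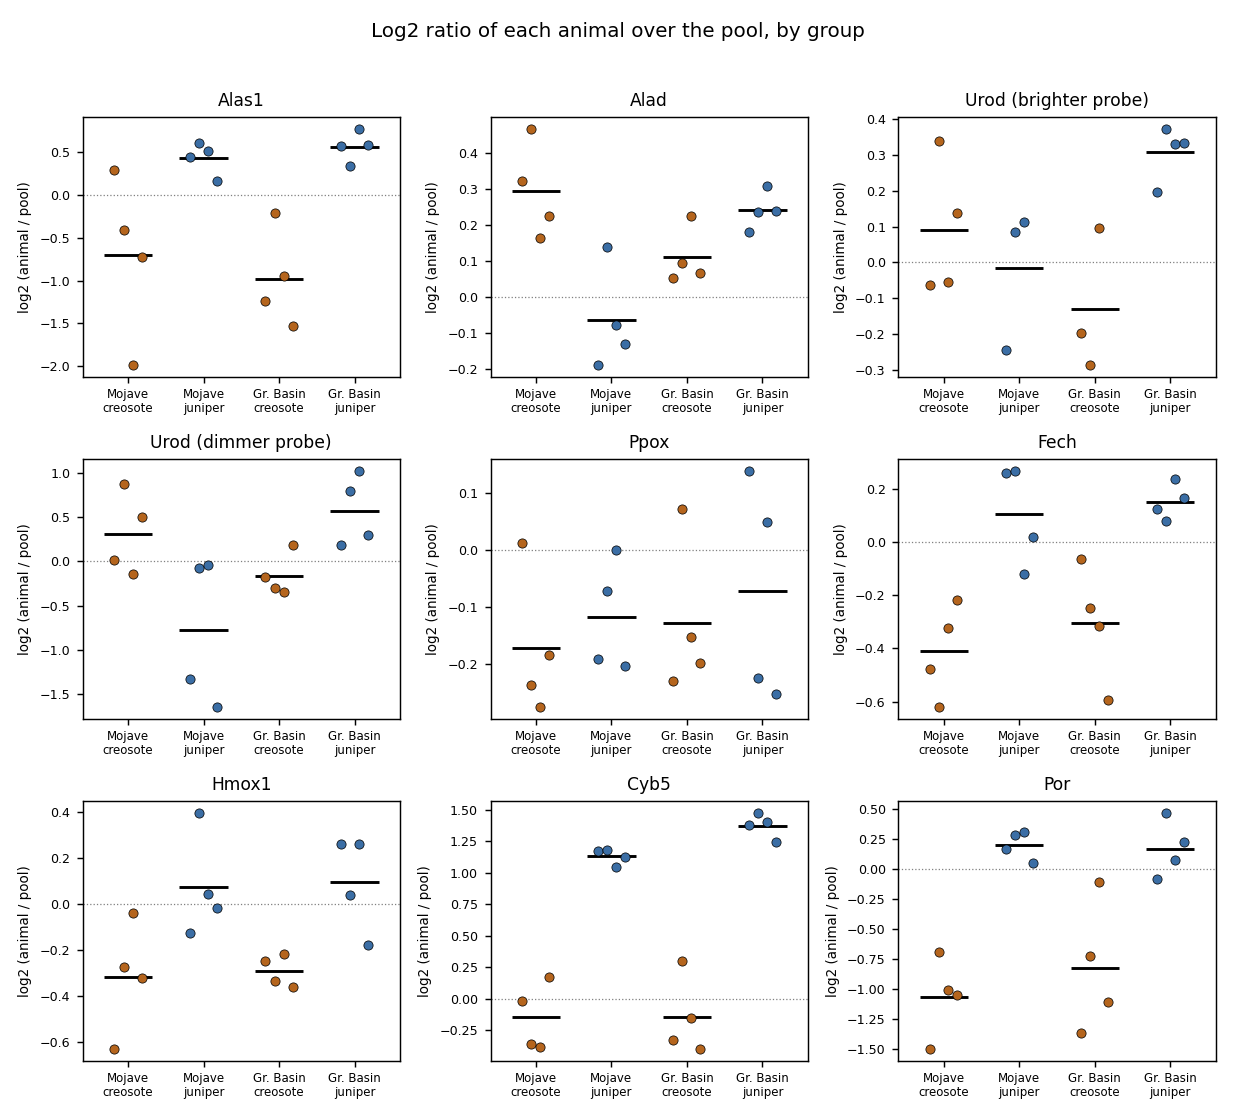
Log2 ratio of each animal over the pool (vertical axis) for the 9 kept probes, by group (horizontal axis); each point is an animal and each bar a group mean. Creosote animals lie below juniper animals of their own population for Cyb5, Por and Fech, the Alad groups part in Mojave and overlap in Great Basin, and the Ppox groups overlap.

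Alas1, the first and rate-setting enzyme (probe A_44_P1024981), was lower on creosote in both populations. Its log2 ratios were 0.298, −0.409, −1.984 and −0.722 in Mojave creosote, against 0.447, 0.613, 0.512 and 0.163 in Mojave juniper. In Great Basin they were −1.237, −0.212, −0.940 and −1.526 on creosote, against 0.578, 0.334, 0.772 and 0.583 on juniper. The Great Basin groups did not overlap, whereas in Mojave a creosote animal, replicate 1, lay among the juniper animals, and the creosote animals were far more spread out (SD 0.95) than the juniper animals (SD 0.19; n = 4 each). The log2 difference was −1.29 ± 0.38 (SE) in Mojave, a 2.45-fold lower level (limma adjusted p = 0.0410). In Great Basin it was −1.55 ± 0.35, or 2.92-fold lower (limma adjusted p = 0.0211). Within slides, the creosote animal was below the juniper animal on 4 of 4 slides in either population.

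The Alas1 calls lay close to the threshold. The Mojave call ended when any of 12 animals was left out, that is all but Mojave creosote replicate 1 and Great Basin creosote replicates 1, 2 and 3, and without slide 1 the Mojave difference was −0.85 (limma adjusted p = 0.092). Its highest limma adjusted p with an animal left out was 0.113, without Mojave juniper replicate 2. The Great Basin call ended without creosote replicates 1 or 4 or juniper replicates 1 or 3, at limma adjusted p of 0.0541 to 0.0767, and stayed at −1.39 without slide 1 (0.0288). The calls of both populations also ended with the scanner software's ratios, with male animals only and with the Cy5 signal alone. With the replicate number as a block the Mojave difference was −1.22 (limma adjusted p = 0.0737). Averaged over populations, Alas1 differed by −1.42 ± 0.26 (limma adjusted p = 0.00185), and that call ended when only males were fitted (0.0939) and under no other setting tried.

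Alad, aminolevulinate dehydratase, takes the second step of the chain, and its small difference (probe A_43_P11610) ran in opposite directions in the populations. Mojave animals had log2 ratios of 0.322, 0.467, 0.164 and 0.226 on creosote, against −0.188, 0.138, −0.076 and −0.131 on juniper. The creosote animals were all above the juniper animals. Great Basin animals had 0.053, 0.096, 0.225 and 0.068 on creosote, against 0.181, 0.237, 0.308 and 0.238 on juniper, with 1 creosote animal inside the juniper range. Alad was 1.27-fold higher on creosote in Mojave, a log2 difference of 0.35 ± 0.09 (limma adjusted p = 0.0208), and differed by −0.13 ± 0.08 in Great Basin (limma adjusted p = 0.465). Within slides creosote was above juniper by 0.24 to 0.51 on 4 of 4 slides in Mojave and below it by 0.014 to 0.255 on 4 of 4 in Great Basin. The Mojave direction depends on the normalisation, since median centring gave −0.04 (limma adjusted p = 0.822). The Mojave call also ended without creosote replicate 2 (0.0605), without juniper replicate 1 (0.11) and without slide 1, where the difference was 0.39 (limma adjusted p = 0.0513). Male animals only and the Cy5 signal alone ended this call as well.

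Urod, uroporphyrinogen decarboxylase, acts midway in the chain and is measured by 2 probes that disagree in size. On the brighter probe (A_44_P1047723) 1 spot in Great Basin creosote and 1 in Mojave juniper were left out as outliers, which leaves 3 animals in those groups. Its log2 ratios were −0.198, −0.287 and 0.095 in Great Basin creosote, against 0.197, 0.373, 0.330 and 0.333 in Great Basin juniper, with no overlap. In Mojave they were −0.064, 0.340, −0.054 and 0.138 on creosote, against −0.244, 0.086 and 0.112 on juniper, which overlap. The brighter probe fell by 0.46 ± 0.12 on the log2 scale in Great Basin (limma adjusted p = 0.0474) and differed by 0.18 ± 0.13 in Mojave (limma adjusted p = 0.486). That Great Basin call was lost in 20 of 30 alternatives, among them the fit with these outlier spots kept and those without any of 10 single animals (Great Basin creosote 1, 2 or 3, Great Basin juniper 2, 3 or 4, Mojave creosote 4, and Mojave juniper 1, 3 or 4). Without slide 1 it was −0.44 (limma adjusted p = 0.273), and with the replicate block −0.39 (0.0619).

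The dimmer Urod probe (A_44_P1047715) pointed the same way in each population with larger and more scattered values. Mojave animals had 0.017, 0.879, −0.138 and 0.505 on creosote, against −1.324, −0.070, −0.040 and −1.641 on juniper, and the low values on juniper came from replicates 1 and 4. Great Basin animals had −0.170, −0.304, −0.348 and 0.188 on creosote, against 0.185, 0.792, 1.022 and 0.297 on juniper. The log2 difference was 1.06 ± 0.37 in Mojave (limma adjusted p = 0.0851) and −0.73 ± 0.34 in Great Basin (limma adjusted p = 0.284), and neither passed. The Mojave difference did pass without the sex term (0.0386), without Mojave juniper replicates 2 (0.046) or 3 (0.0369), and, just under the threshold, without slide 1, where it was 1.42.

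The late steps did not move as a group. Cpox, coproporphyrinogen oxidase, was not well above background on any of the 16 arrays (probe A_44_P1060345) and was not tested. How well the rat probes of Cpox and the other members match the woodrat transcripts was not examined, so a dim probe does not show a low transcript level. Ppox, protoporphyrinogen oxidase (probe A_44_P231143), ranged from −0.28 to 0.01 in Mojave creosote against −0.20 to 0 in Mojave juniper, and from −0.23 to 0.07 in Great Basin creosote against −0.25 to 0.14 in Great Basin juniper. The groups overlapped throughout. Its log2 difference was −0.06 with a 95% interval of −0.29 to 0.18 in Mojave (limma adjusted p = 0.839), and −0.05 with an interval of −0.27 to 0.16 in Great Basin (0.844). Under median centring alone the Mojave difference was −0.47 (limma adjusted p = 0.039), and the small Ppox values change sign between settings. With median centring 5632 of all probes passed in Mojave, against 3028 in the main fit, and 13.6% of the 5632 were higher on creosote.

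Fech, which inserts the iron, was lower on creosote in both populations (probe A_44_P443228). Mojave animals had log2 ratios of −0.477, −0.619, −0.325 and −0.218 on creosote, against 0.257, 0.266, −0.120 and 0.019 on juniper. Great Basin animals had −0.065, −0.248, −0.316 and −0.593 on creosote, against 0.122, 0.080, 0.235 and 0.166 on juniper. No creosote animal reached the lowest juniper animal of its population. Fech fell by 0.63 ± 0.10 on the log2 scale in Mojave, or 1.55-fold (limma adjusted p = 0.00113), and this call was kept in 30 of 30 alternatives, with −0.98 under median centring. In Great Basin it fell by 0.46 ± 0.09, or 1.37-fold (limma adjusted p = 0.0106). The Great Basin call held whichever single animal was left out and ended without slide 1, where the difference was −0.51 (limma adjusted p = 0.0512), and under median centring (−0.40, 0.0844). With male animals only (limma adjusted p = 0.318) and with the Cy5 signal alone it ended too. Fech signals were low, at 212 to 898 units of red intensity over the 16 animals, and the offset of 50 used in background correction draws the ratios of dim probes towards 0.

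Of 7 further genes of haem synthesis and its mitochondrial transport, 1 passed as lower and 0 as higher in Mojave, and likewise 1 and 0 in Great Basin. Over all probes 6.24% passed as lower and 3.80% as higher in Mojave, and 1.89% and 2.02% in Great Basin. The lists of other genes were drawn up with earlier results of these data known. The median log2 difference of these 7 was −0.11 in Mojave and −0.14 in Great Basin. Abcb10, a mitochondrial inner membrane transporter, fell by 0.57 in Mojave (limma adjusted p = 0.0116) and had −0.35 in Great Basin (0.133), and without slide 1 the Mojave call ended. Abcb6, a porphyrin transporter, fell by 0.31 in Great Basin (limma adjusted p = 0.0359) and had 0.06 in Mojave (0.753). The Abcb6 call ended without any of Great Basin creosote 1, 3 or 4 or juniper 2, 3 or 4. Uros, which acts just before Urod, had 0.36 in Mojave (limma adjusted p = 0.0832) and 0.10 in Great Basin (0.726), and Alas2, the erythroid form of the first enzyme, had −0.38 (0.449) and −0.26 (0.662).

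**Figure D2:**
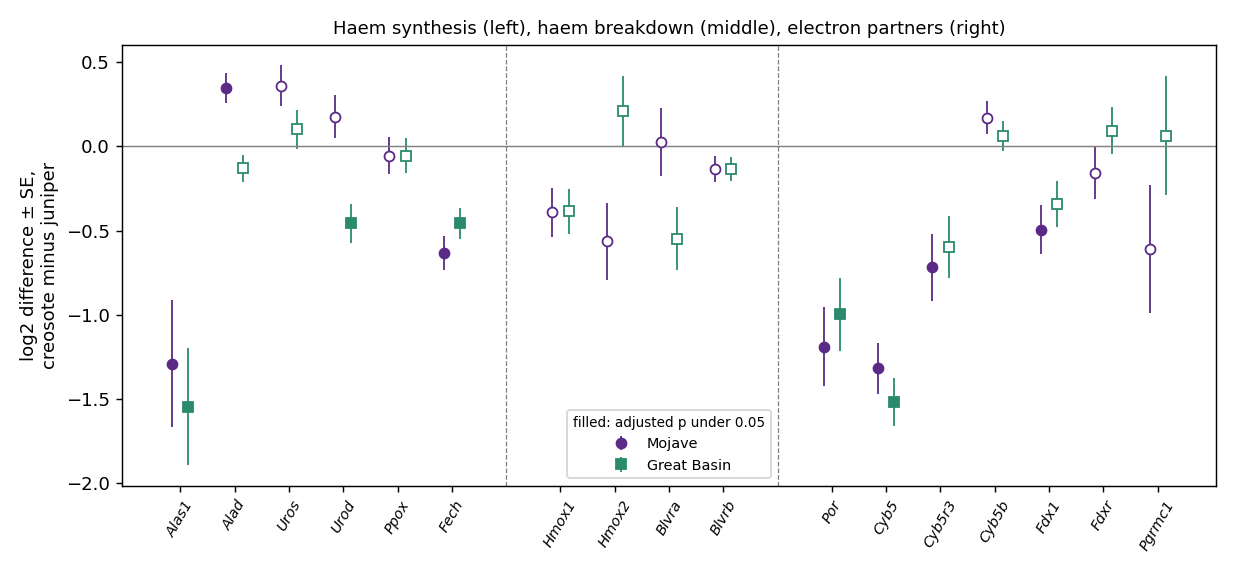
Log2 difference (creosote minus juniper) with its SE for members and listed genes in the order of the pathway, for Mojave and Great Basin; filled symbols passed at adjusted p under 0.05, and Urod is shown by its brighter probe. Among the synthesis genes Alas1 and Fech lie below 0 as filled symbols in both populations, and Alad in Mojave lies above 0.

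Hmox1, the inducible haem oxygenase, was printed 10 times on every array (probe A_43_P11472), and the SD over the spots of an array was 0.026 to 0.063. Its log2 ratios were −0.628, −0.270, −0.037 and −0.321 in Mojave creosote, against −0.123, 0.398, 0.045 and −0.016 in Mojave juniper. In Great Basin they were −0.247, −0.332, −0.217 and −0.358 on creosote, against 0.261, 0.043, 0.263 and −0.176 on juniper. The Great Basin groups did not overlap and the Mojave groups did. The scatter between animals of a group (SD 0.07 to 0.24) was mostly wider than that between spots. Hmox1 differed by −0.39 ± 0.15 in Mojave (limma adjusted p = 0.108) and −0.39 ± 0.13 in Great Basin (0.133), and neither passed. Averaged over both populations the difference was −0.39 ± 0.10 and passed (limma adjusted p = 0.0168). That call ended without Great Basin juniper replicate 3 or Mojave juniper replicate 2, at limma adjusted p up to 0.0525, and with male animals only (0.181). In Mojave, leaving out creosote replicate 3, the slide 1 animal, gave −0.49 (limma adjusted p = 0.0456), and median centring gave −0.80 (0.00574). With median centring 5632 of all probes passed in Mojave, against 3028 in the main fit, and most of the 5632 were lower on creosote.

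Of 7 tested genes of haem breakdown, transport and binding, 1 passed as higher in each population and 0 as lower. Of all probes 3.80% passed as higher and 6.24% as lower in Mojave, and 2.02% and 1.89% in Great Basin. The median log2 difference of the 7 was 0.19 in Mojave and 0.03 in Great Basin. The passing gene was Ambp, whose protein product alpha-1-microglobulin binds haem, at 0.59 in Mojave (limma adjusted p = 0.0116) and 0.63 in Great Basin (0.0098). With the Cy5 signal alone the Ambp differences came as low as 0.04 in Mojave and 0.08 in Great Basin, and without slide 1 both calls ended. Hebp1, a haem-binding protein, passed as higher averaged over the populations, at 0.67 ± 0.15 (limma adjusted p = 0.0109). The constitutive haem oxygenase Hmox2 had −0.57 in Mojave (limma adjusted p = 0.146) and 0.21 in Great Basin (0.689). Biliverdin reductase A, Blvra, had 0.03 (0.966) and −0.55 (0.124), and Blvrb had −0.14 (0.326) and −0.14 (0.367).

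Por, the reductase that feeds electrons to P450s, was lower on creosote by about 1 log2 unit (probe A_44_P402375). Mojave animals had −1.499, −0.690, −1.012 and −1.055 on creosote, against 0.163, 0.277, 0.307 and 0.044 on juniper, with a gap between the groups. Great Basin animals had −1.367, −0.729, −0.111 and −1.110 on creosote, against −0.085, 0.464, 0.071 and 0.220 on juniper. There the groups almost touched, since creosote replicate 3 lay 0.026 below juniper replicate 1. Por fell by 1.19 ± 0.24 in Mojave, 2.28-fold (limma adjusted p = 0.00499), and by 0.997 ± 0.218 in Great Basin, 2.0-fold (0.0175). The Mojave call was kept in 30 of 30 alternatives. The Great Basin call ended without creosote replicate 1 (limma adjusted p = 0.0659), juniper replicate 2 (0.0606) or juniper replicate 4 (0.0611), and without slide 1 the difference was −0.85 (0.163). That call also ended with the scanner software's ratios, under median centring and with male animals only, so it depends on the normalisation. Before normalisation the red signal of Por was 4324 to 6329 in Mojave creosote against 22464 to 26542 in Mojave juniper. The pool's green signal was 7325 to 8256 against 8151 to 8562. Red signal before normalisation was also lower for Ppox in Mojave creosote, at 849 to 1246 against 1439 to 1739, though its fitted difference was −0.06. After normalisation Por differed in Mojave by −1.47 in red and −0.21 in the pool.

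Cyb5 (probe A_44_P374586) was lower on creosote in both populations, with no overlap. Mojave animals had −0.017, −0.359, −0.385 and 0.173 on creosote, against 1.169, 1.178, 1.044 and 1.122 on juniper. Great Basin animals had −0.324, 0.300, −0.155 and −0.397 on creosote, against 1.379, 1.473, 1.402 and 1.239 on juniper. All juniper animals were above 1 and no creosote animal was above 0.30. The log2 ratio differed by −1.32 ± 0.15 in Mojave (limma adjusted p = 0.000191) and −1.52 ± 0.14 in Great Basin (4.83e-05). Both calls were kept in 30 of 30 alternatives, and without slide 1 the values were −1.27 and −1.45. Fitted on the Cy5 signal alone they were −0.58 (limma adjusted p = 0.000898) and −0.53 (0.00117).

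The size of the Cyb5 difference is less certain than its direction. The animal's red signal was saturated on all 8 juniper arrays and on 0 of the 8 creosote arrays, so the juniper level is a lower bound. The SD of the log2 ratios was 0.06 on juniper and 0.27 on creosote in Mojave, and 0.10 and 0.31 in Great Basin. The part of saturation in the narrow juniper spread was not tested, so the SE and p of Cyb5 may not measure the spread between animals. In the red channel, normalised together with the green, the creosote level was 1.40-fold lower in Mojave (17.84 against 18.32 on the log2 scale). In Great Basin it was 1.43-fold lower (17.92 against 18.43). Both are lower bounds as far as saturation goes, and the normalisation behind them also draws on the green channel. The green signal of the pool, which is the same RNA on every array, also differed: it was 175746.5 to 230598 on Mojave creosote arrays against 74825 to 99996 on Mojave juniper arrays. On Great Basin arrays it was 123662 to 179308 on creosote against 78617 to 88253 on juniper. After normalisation the pool's Cyb5 signal was higher on creosote arrays by 0.79 in Mojave and 1.005 in Great Basin, where the median over all probes was 0.008 and 0.015, and 0.00994% and 0.0166% of probes had a pool difference at least as large. In the red channel the difference was −0.48 in Mojave and −0.51 in Great Basin, capped by the saturation on juniper. The part of the pool channel in the Cyb5 result was not tested.

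**Figure D3:**
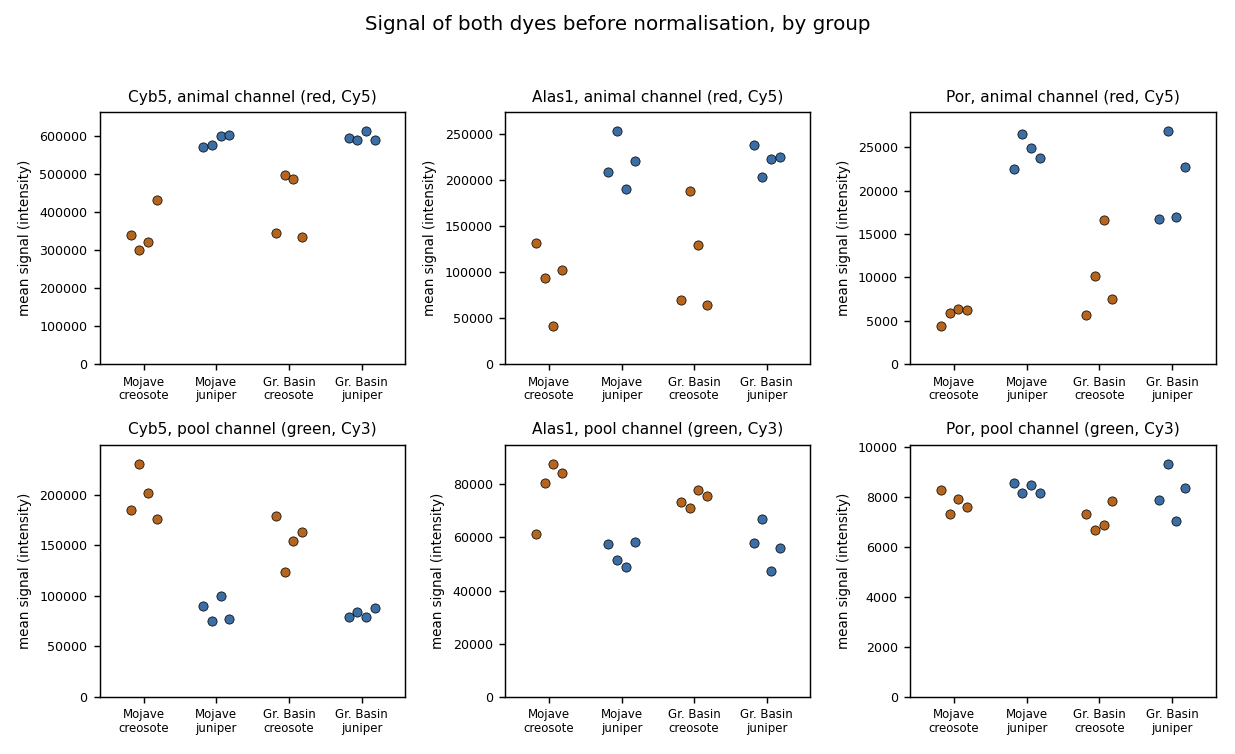
Mean signal before normalisation (vertical axis, intensity from 0) of the animal's red channel (top) and the pool's green channel (bottom) for Cyb5, Alas1 and Por, each point an array, by group. Red signals are lower on creosote for all 3 genes. Within each population the pool's Cyb5 and Alas1 signals are higher on creosote arrays, with no overlap, whereas the pool's Por signal is similar.

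For Alas1 the pool channel differed in the same sense but by less, 0.11 in Mojave and 0.39 in Great Basin. The red channel normalised with it had −1.03 and −1.16. Before normalisation the pool's Alas1 signal was 61408 to 87771 on Mojave creosote arrays against 49015 to 58204.5 on Mojave juniper arrays. On Great Basin arrays it was 71078 to 77774 on creosote against 47258 to 67081 on juniper, so it did not overlap in either population. With the red channel alone, fitted for the same contrasts, Alas1 differed by −0.86 in Mojave (limma adjusted p = 0.166) and −0.998 in Great Basin (0.0644), and neither passed. For Por the red channel alone gave −1.31 in Mojave (limma adjusted p = 0.00696) and −1.10 in Great Basin (0.0126). Fech had −0.88 (0.0204) and −0.51 (0.109).

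**Figure D4:**
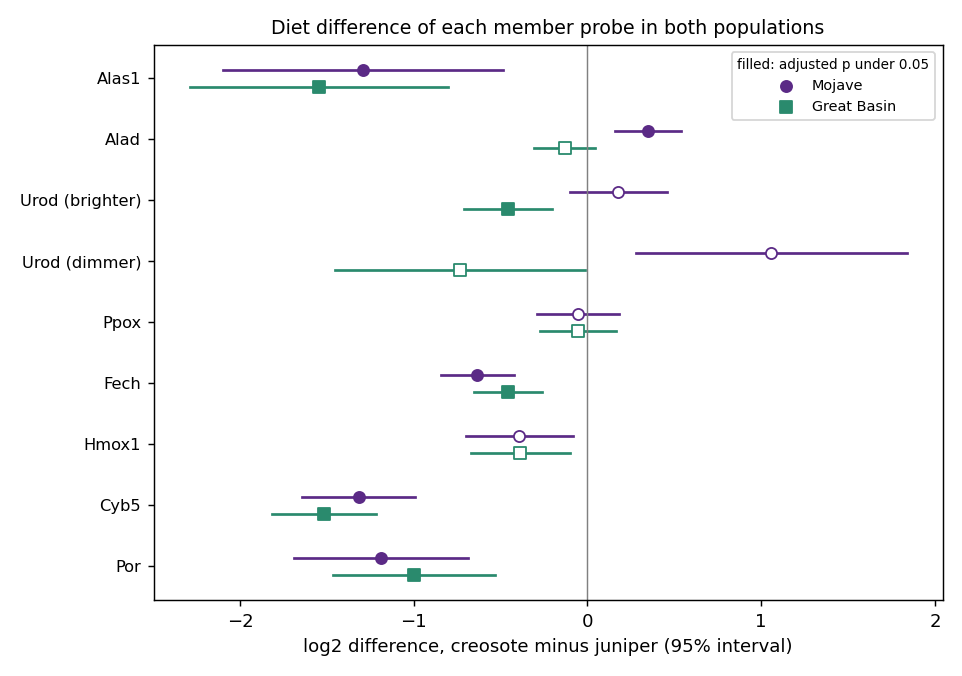
Log2 difference, creosote minus juniper, with its 95% interval (horizontal axis) for each kept probe (vertical axis) in Mojave and Great Basin; filled symbols passed at adjusted p under 0.05. Alas1, Fech, Cyb5 and Por lie below 0 in both populations, and the intervals of Alad and of both Urod probes lie on different sides in the 2 populations or reach 0.

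Among 7 tested other electron partners, 2 passed as lower in Mojave and 0 in Great Basin, with 0 higher in either. The shares over all probes were 6.24% lower and 3.80% higher in Mojave, and 1.89% and 2.02% in Great Basin. The median log2 difference of the 7 was −0.25 in Mojave and 0.04 in Great Basin. Cyb5r3, the reductase that hands electrons from NADH to cytochrome b5, fell by 0.72 in Mojave on its brightest probe (limma adjusted p = 0.0316) and had −0.60 in Great Basin (0.0871). A second Cyb5r3 probe had −0.05 (limma adjusted p = 0.763) and 0.05 (0.789), so the probes disagree, and the Mojave call ended without any of creosote replicates 1 or 2 or juniper replicates 2 or 4. Fdx1, ferredoxin, which serves mitochondrial P450s, fell by 0.50 in Mojave (limma adjusted p = 0.0442), a call lost when any of 14 animals was left out, and had −0.34 in Great Basin (0.198). Cyb5b, the mitochondrial cytochrome b5, had 0.17 (0.342) and 0.06 (0.798). Fdxr, the reductase of ferredoxin, had −0.16 (0.622) and 0.09 (0.807).

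The P450 enzymes that receive the haem and the electrons did not move as a block. Of 33 tested genes of families 1 to 3, 8 passed as lower and 2 as higher on creosote in Mojave, and 11 as lower and 1 as higher in Great Basin. For all probes the shares were 6.24% lower and 3.80% higher in Mojave, and 1.89% and 2.02% in Great Basin. The median log2 difference of the 33 was −0.20 and −0.10. Cyp3a3 fell by 1.49 in Mojave (limma adjusted p = 0.000293) and by 1.18 in Great Basin (0.00107). Cyp2b15 fell by 1.57 (limma adjusted p = 0.00423) in Mojave and fell by 1.86 (0.0013) in Great Basin on its brightest probe, whereas its other probe had 0.31 (0.241) and 0.15 (0.66). Cyp2e1, which oxidises small solvents and alcohols, rose by 0.65 (0.00387) and 0.51 (0.0211), and its Great Basin call ended with male animals only, without slide 1, with the Cy5 signal alone, and without any of creosote replicates 1 or 3 or juniper replicates 1 or 3. The Cyp2e1 call in Mojave ended under median centring and with the Cy5 signal alone, and its lowest value over the alternatives was 0.185, with a limma adjusted p of up to 0.518. Related P450s can share a rat probe, and whether the probes separate the woodrat transcripts was not examined.

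Of 9 tested regulators of Alas1 and Hmox1, 1 passed as higher and 1 as lower in Mojave and 1 as higher in Great Basin. Among all probes 3.80% passed as higher and 6.24% as lower in Mojave, and 2.02% as higher in Great Basin. The higher gene was Nr1i3, the constitutive androstane receptor, which turns on Alas1, Por and P450 genes in rodents. It was higher on creosote by 0.82 in Mojave (limma adjusted p = 0.000588) and 0.67 in Great Basin (0.00186), on the brightest of its probes, while the other probe had 0.06 (0.827) and −0.01 (0.964). Nrf1, nuclear respiratory factor, fell by 0.35 in Mojave (limma adjusted p = 0.0255), a call lost without any of creosote replicates 1 or 4 or juniper replicates 1 or 2, and had 0.07 in Great Basin (0.766). Ppargc1a, a coactivator of Alas1 in fasted mouse liver, had 0.24 (0.599) and 0.33 (0.445), and Bach1, the repressor of Hmox1, had −0.20 (0.376) and 0.16 (0.528). None of 8 tested genes of iron supply passed limma's test in either population, when 10% of all probes did in Mojave and 3.91% in Great Basin. The median log2 difference of the 8 was −0.15 and −0.01, and the transferrin receptor Tfrc had 0.34 (0.391) and 0.30 (0.489).

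The populations were compared on each diet as Mojave minus Great Basin. On creosote 0 of 9 member probes passed limma's test, when 0.0928% of all probes did, and 2 had an unadjusted p under 0.05, as did 14.3% of all probes. On juniper 0 of 9 passed, when 0% of all probes did, and 3 had an unadjusted p under 0.05, as did 8.19% of all probes. Averaged over diets 0 of 9 passed limma's test, when 0.0398% of all probes did, and 0 had an unadjusted p under 0.05, which 9.29% of all probes had. For the interaction 0 of 9 passed, when 0% of all probes did, and again 3 had an unadjusted p under 0.05, as did 13.4% of all probes. Fech on creosote was −0.22 ± 0.10 (limma adjusted p = 0.32), but with median centring it was −0.52 and passed (0.0246). With median centring 3682 of all probes passed on creosote, against 28 in the main fit, and 5.73% of the 3682 were higher in Mojave. On juniper the 4 Mojave animals lay wholly below the 4 Great Basin animals for Alad and the dimmer Urod probe, and the 3 measured Mojave animals lay below the 4 Great Basin animals for the brighter Urod probe. Such separation was seen for 0 of 9 probes on creosote, where 6.16% of all probes showed it, and on juniper for 4 of 9, where 7.18% did. The fourth was Cyb5, which was saturated in red on all 8 juniper arrays, so its levels cannot be compared between the populations on juniper. The log2 differences there were −0.31 ± 0.08 for Alad (limma adjusted p = 0.27), −1.34 ± 0.34 for the dimmer Urod probe (0.23) and −0.34 ± 0.12 for the brighter (0.424). On creosote, where no array was saturated, Cyb5 averaged −0.15 ± 0.27 in Mojave and −0.14 ± 0.31 in Great Basin (SD, n = 4 each), and the fitted difference was −0.045 with a 95% interval of −0.37 to 0.28 (limma adjusted p = 0.933).

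Alad and both Urod probes were also those whose diet difference varied most between populations relative to its error. The interaction, the Mojave diet difference minus the Great Basin one, was 0.48 ± 0.12 for Alad (unadjusted p = 0.00124, limma adjusted p = 0.108). It was 1.79 ± 0.50 for the dimmer Urod probe (unadjusted p = 0.00264, limma adjusted p = 0.134) and 0.63 ± 0.17 for the brighter (unadjusted p = 0.00295, limma adjusted p = 0.137). None passed the adjusted threshold. With median centring the Alad interaction was −0.02 and that of the brighter Urod probe 0.07, so for these probes it depends on the normalisation, whereas the dimmer Urod probe had 1.30. For Alas1 the interaction was 0.25 with a 95% interval of −0.84 to 1.35 and for Por −0.19 with −0.88 to 0.49. These intervals leave room for sizeable differences between populations in either direction. Between the sexes 0 of 9 probes passed limma's test, when 0.00663% of all probes did, and 1, Fech, had an unadjusted p under 0.05, which 4.41% of all probes had, at 0.24 ± 0.08 as male minus female (unadjusted p = 0.00639, limma adjusted p = 0.994).

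Among 10400 genes with a symbol and a value on all 16 arrays, the genes whose log2 ratios across the 16 animals correlated best with each member are given as a description, with Pearson's r and, in brackets, r after the group means and sex were taken out. The animals share the pool and 4 slides, and much of r follows from the diet groups. Nearest to Cyb5, whose 8 juniper values are saturated in red so that the order is uncertain, were Gsto1 at 0.955 (0.777), Psmb2 at 0.953 (0.765) and Copz2 at 0.951 (0.492). Nearest to Por were Gsr, glutathione reductase, at 0.937 (0.681), Ube2m at 0.925 (0.764) and Odc1 at 0.922 (0.668). Alas1 had Dnaja1 at 0.901 (0.746), Psmb2 at 0.887 (0.586) and Tnfrsf14 at 0.887 (0.756). Psmb2 is a proteasome subunit. For Fech they were Rad23b at 0.906 (0.636), Dci at 0.903 (0.538) and Crat at 0.895 (0.594). For Hmox1 they were Mycs at 0.875 (0.735), Cldn3 at 0.870 (0.679) and Dhodh at 0.862 (0.760). The correlations were lower for Alad, whose nearest gene was Chia at 0.844 (0.609), and for Ppox, whose nearest was Mrps25 at 0.792 (0.787). None was computed for Urod, whose brighter probe lacked 2 values.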

How the data were processed

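The deposited scanner files hold the mean signal and median local background of both dyes per spot, in linear units of intensity, written by Agilent Feature Extraction 9.1.3.1 per the submitters' processing notes. The deposited series matrix holds log2 values of animal over pool, equal to the ratio of the software's processed signals to within 5e-10, and served as an alternative. The mean and background signals were analysed in R 4.3.3 with limma 3.58.1: normexp background correction with an offset of 50, loess within each array, outlier spots left out and repeated spots averaged. Of 41012 probes, the 30184 flagged well above background in red on 4 or more of the 16 arrays were kept. A linear model with 4 group means and sex was fitted per probe (11 residual and 4.05 prior degrees of freedom) and tested two-sided with Benjamini-Hochberg adjustment, at 0.05, over the kept probes with a value for the contrast. Median standard errors were 0.097 for the diet difference in Mojave and 0.090 in Great Basin, limited by the number of arrays. The code was tested on simulated data. For genes outside the 9, the brightest probe stands for the gene, and passing genes were named, at most 6 per list and contrast, with some left out. Among the P450s these were not always the largest differences. Cyp2d10 (−1.495) and Cyp2a3a (1.053) in Mojave and Cyp2b13 (−1.648) in Great Basin passed and were not named with the others. Up to 3 genes most correlated with each member were named. Members and lists were chosen with earlier results of these data known. Replicate numbers did not pair animals: same-numbered animals of different groups had residual correlations of −0.167 to 0.144. The highest correlation of log2 ratios between 2 arrays was 0.549. Symbols follow the array's annotation, and probe sequences and genome positions were not used here. A further gene of the haem synthesis list is not reported here.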

Additional observations from a re-analysis of the deposited data

Results flagged for a closer look

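No value of the 9 kept probes met the criteria for a closer look: in 34 groups of 4 animals, 0 had an animal whose gap to its nearest neighbour, as a share of the group's range, passed Dixon's critical value, and no interaction passed limma's adjusted threshold.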

How the results depend on the processing

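The counts of member probes that passed varied mostly in the diet contrasts. In Mojave 5 of 9 passed, against 3 with male animals only and 3 with the Cy5 channel alone, and 3 to 5 with an animal left out (3 without Mojave creosote replicate 2 or Mojave juniper replicate 1). Calls over all probes changed too. In Mojave they numbered 3028, against 1273 with male animals only, 1288 with the Cy5 channel alone and 1894 to 3286 with an animal left out. In Great Basin 5 member probes passed, against 2 with the scanner software's ratios, 2 with median centring, 1 with male animals only, 2 without slide 1, 3 with the Cy5 channel alone, and 2 to 5 with an animal left out (2 without creosote replicate 1, and 3 without juniper replicates 2, 3 or 4). Of all probes 1180 passed there, against 779 with the scanner software's ratios, 1248 with median centring and 174 with male animals only. Without slide 1 it was 434, with the Cy5 channel alone 1620, and with an animal left out 688 to 1397. Averaged over populations 5 member probes passed, against 3 with male animals only, and 3688 of all probes, against 1422. For Mojave minus Great Basin on creosote 0 member probes passed, against 1 (Fech) with median centring, where 3682 of all probes passed, against 28 in the main fit. The cause of these shifts was not tested, and where animals were left out the fit also had fewer of them. A single call changed sign, that of Alad in Mojave, which was −0.043 with median centring (limma adjusted p = 0.822). With the replicate number as a block, 4 member probes passed in Mojave, 4 in Great Basin and 5 averaged over populations, and the block changed no other member call than those of Alas1 in Mojave and the brighter Urod probe in Great Basin; the check of the numbers did not pair the animals. Without slide 1 the calls of Abcb10, Ambp, Cyb5r3, Fdx1 and Nrf1 in Mojave and of Abcb6, Ambp and Cyp2e1 in Great Basin also ended. So did those of the P450s Cyp2b13, Cyp2a3a and Cyp2d10 in Mojave and of Cyp2b3, Cyp2b13, Cyp2b2, Cyp2d22 and Cyp2d10 in Great Basin. Keeping outlier spots was added after seeing the data. Over single probes, 3219 alternative values kept their side of the threshold, 215 lost the call, 8 gained it and 1 call changed sign. Values that passed in neither fit count among the 3219 even where their sign changed. Saturation limits the Cyb5 value on juniper, and low signal that of Fech and Cpox.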
